A study of Mus musculus with 7 samples.

Results

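The nuclear genes of oxidative phosphorylation (OXPHOS) were examined in single cells from mammary tumours and blood of PyMT mice, which carry the polyoma middle T transgene and develop breast cancer. Genes were chosen by symbol alone: the Nduf subunits of complex I, Sdha to Sdhd of complex II, the Uqcr genes of complex III, the Cox4 to Cox8 families of complex IV and the Atp5 genes of complex V. In the 4 libraries of experiment (ii), 77 of 11753 genes met this rule, 36 of complex I, 4 of complex II, 8 of complex III, 12 of complex IV and 17 of complex V. Atp5s and Atp5sl are among the 17 by symbol, though they are not counted as subunits of the complex. In experiment (i), 78 of 12145, 75 of 8868 and 51 of 3315 genes of libraries 1, 2 and 3 met it. Cells were measured by CEL-seq, which reads the 3' end of transcripts with a molecular barcode, so that a transcript counts once whatever its length. How a gene's reads were assigned also sets its level, and that can differ between genes. Levels are given as estimated transcripts per 10000.

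All cells came from mice with the same transgene, and no age, strain or untreated control was analysed here. In experiment (ii) each library held solid tumour cells sorted as positive (TEpos) or negative (TEneg) for E-cadherin (Ecad), the epithelial adhesion protein, and Ecad-negative cells taken from blood and labelled circulating tumour cells (BEneg), in 24 wells each. Library 1 also held 24 wells of Ecad-positive cells from blood (BEpos). Experiment (i) held 3 libraries of 96 wells of Ecad-positive tumour cells. The labels do not tie the libraries to different mice. The p-values here therefore speak for the spread among these libraries, and that spread may be technical.

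Complexes I to IV of the inner mitochondrial membrane pass electrons from NADH and succinate to oxygen, and complexes I, III and IV pump protons as they do so. Complex V, the ATP synthase, lets protons flow back through a membrane-embedded c-ring and makes ATP in its F1 head. The core of complexes I, III, IV and V includes subunits encoded by mitochondrial DNA, while the genes studied here are read in the nucleus and their proteins are imported. 0 mitochondrially encoded genes have rows in the table of experiment (ii), so only the nuclear side was measured.

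Wells with at least 500 transcripts were used, 220 of 312 in experiment (ii), and their median depth was 2064 transcripts for the 71 TEpos wells, 1603 for 69 TEneg, 819 for 60 BEneg and 3803 for 20 BEpos wells. Of the 96 cell barcodes, 72 were reused in all 4 libraries, and each barcode always marked the same population. The sorted blood populations carried the transcripts of blood leukocytes. All 7 neutrophil markers of the list (S100a8, S100a9 and others) were detected in BEneg and summed to 7.81% ± 2.71 of transcripts (SD, n = 4 libraries, range 4.56 to 10.3), against 0.246% ± 0.0914 in TEpos and 0.260% ± 0.131 in TEneg (n = 4 each) and 2.05% in BEpos, where Csf3r was at 0. Monocyte markers summed to 1.14 to 1.87% in BEneg and 0.358% in BEpos, and to at most 0.111% in tumour libraries. The 8 epithelial markers summed to 0.413 to 0.679% in TEpos and 0.181 to 0.392% in TEneg. In blood they summed to 0.0571 to 0.135% in BEneg, where Cldn7 was at 0, and to 0.00934% in BEpos. There Krt19, Cldn3 and Cldn7 were at 0 and the other 5 markers were detected. The low sum in BEpos went against its Ecad-positive label, though that label comes from sorting on a protein and these values are RNA. The 7 luminal mammary markers summed to 2.07 to 3.69% in TEpos, 0.994 to 1.88% in TEneg and 0.127 to 0.354% in BEneg, where Csn2 and Elf5 were at 0. The TEneg sums held more basal markers (0.0977 to 0.758%, against 0.0151 to 0.0295% in TEpos) and endothelial markers (0.0350 to 0.127%, against 0.00365 to 0.0333%), and fibroblast markers came to 0.0438 to 0.123% against 0.0300 to 0.0548%. In BEneg basal markers summed to 0.0123 to 0.0359% and endothelial markers to 0 to 0.0197%. The leukocyte markers move with every comparison of blood below, and the basal and endothelial markers with both comparisons that involve TEneg. The luminal markers move with all 3, in the order of the OXPHOS share. The part of these markers in the results was not tested.

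OXPHOS transcripts made up 3.05% ± 0.325 of all transcripts in TEpos, 2.42% ± 0.399 in TEneg and 1.83% ± 0.252 in BEneg (SD, n = 4 libraries each). In libraries 1 to 4 the share was 3.09, 3.49, 2.87 and 2.75% in TEpos, 2.63, 2.62, 2.63 and 1.83% in TEneg, and 1.85, 1.67, 2.18 and 1.62% in BEneg. TEpos stood above both other populations with no overlap, and TEneg and BEneg overlapped only through library 4 of TEneg. Within each library TEneg was at 0.663 to 0.916 times the TEpos share, BEneg at 0.639 to 0.889 times the TEneg share, and BEneg at 0.479 to 0.761 times the TEpos share, lower in 4 of 4 libraries each time. Because the genes were chosen with these data known, no p-value was set on a sum over them. BEpos, in 1 library, had 1.81% (1356 of 75125 transcripts, exact Clopper-Pearson 95% interval 1.71 to 1.90%, counting error only), next to 1.85% for BEneg of that library.

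**Figure D1:**
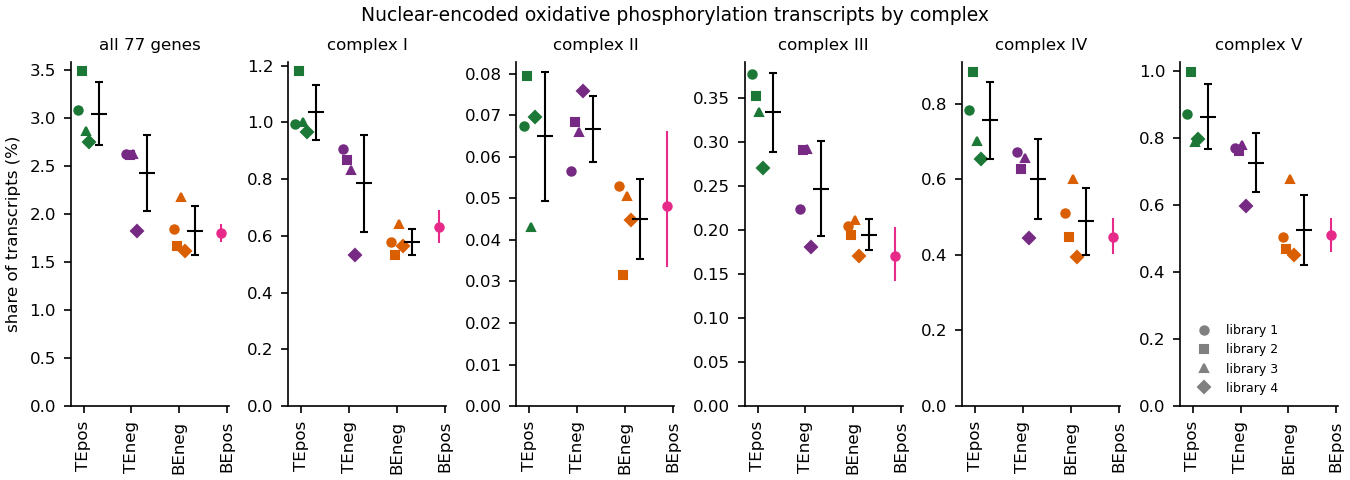
Share of transcripts (%) from all 77 OXPHOS genes and from each complex. Points are libraries 1 to 4, black bars are the mean ± SD of 4 libraries, and the BEpos line is the exact 95% interval of 1 library. TEpos lies highest for all genes together (2.75 to 3.49%), and complex II is the panel where TEpos and TEneg overlap most.

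Complex I supplied 34% ± 1.35 of OXPHOS transcripts in TEpos, 32.1% ± 2.38 in TEneg and 31.9% ± 2.25 in BEneg (SD, n = 4 each). Complex V supplied 28.3% ± 0.585, 30.1% ± 1.60 and 28.3% ± 1.73, complex IV 24.7% ± 0.805, 24.7% ± 0.750 and 26.5% ± 1.54, and complex III 10.9% ± 1.18, 10.1% ± 1.25 and 10.7% ± 0.807. Libraries of the populations overlapped in each of these shares except complex V, with 27.5 to 28.9% in TEpos and 29.1 to 32.5% in TEneg. Complex II, succinate dehydrogenase, which also works in the citric acid cycle, supplied 2.12% ± 0.433 in TEpos and 2.85% ± 0.882 in TEneg. Its share of all transcripts was lower in TEneg than in TEpos in 2 of 4 libraries only (ratios 0.839, 0.860, 1.53 and 1.09), whereas complexes I, III, IV and V were lower in 4 of 4. It rests on 129 transcripts in TEpos and 121 in TEneg, and whether it differed from the other complexes was not tested.

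Read well by well, the same counts gave the same order of TEpos, TEneg and BEneg. Wells are not replicates, and the medians here pool the wells of all libraries. The median share came to 3.01% over 71 TEpos wells (lowest 1.96%, highest 5.08%), 2.46% over 69 TEneg wells (0.938 to 4.54%), 1.63% over 60 BEneg wells (0.258 to 3.22%) and 1.73% over 20 BEpos wells (1.37 to 2.29%). Single wells of the populations overlapped widely, and 0 wells of experiment (ii) lacked OXPHOS transcripts. To compare wells at 1 depth, the number of different OXPHOS genes expected in 500 transcripts was computed for each well without random draws. It was 13.1 ± 1.18 in TEpos, 10.4 ± 1.52 in TEneg and 7.64 ± 0.753 in BEneg (SD over 4 library means), and 8.06 in BEpos. At full depth the wells held 36.1 ± 9.77, 26.6 ± 8.45 and 15.2 ± 2.58 of these genes, and 36.8 in BEpos. Wells just above the depth minimum (500 to under 750 transcripts) had a share of 3.08% in TEpos, 2.12% in TEneg and 1.74% in BEneg, and wells just below it (250 to under 500) had 2.78, 2.35 and 1.27%.

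**Figure D2:**
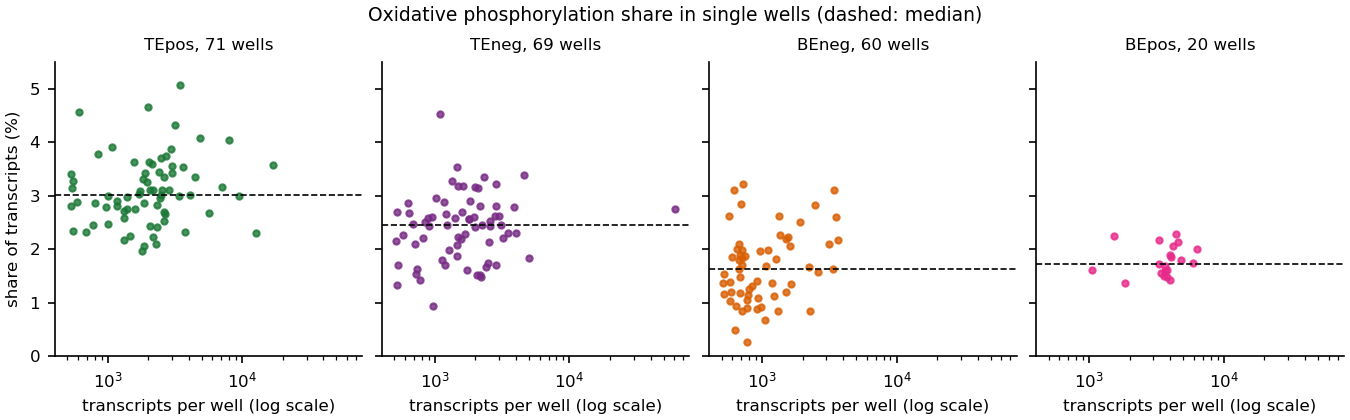
Share of transcripts (%) from OXPHOS genes in each well against the transcripts of the well (log scale). Each point is a well, and the dashed line is the median of its population. The medians are 3.01% (TEpos) and 2.46% (TEneg) for tumour wells, against 1.63% (BEneg) and 1.73% (BEpos) for blood wells. The TEneg well at 61227 transcripts has a share of 2.76%.

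Levels differed widely among the genes. The order given here is that of the deposited counts of experiment (ii), and for some genes, such as Ndufa4, it was another in experiment (i). Complex IV genes had the highest median level, 5.73 transcripts per 10000 over the 12 sums of population and library, followed by complex V with 4.56, complex III with 3.55, complex I with 2.05 and complex II with 1.5. Cox7c, a small subunit of cytochrome c oxidase, was the highest of all at 8.68, followed in its complex by Cox8a (7.81) and Cox6c (7.32), both small nuclear-encoded subunits. In complex V the leading genes were Atp5b (7.48), the catalytic beta subunit of the F1 head, Atp5g3 (7.33), which encodes the c-ring protein, and Atp5h (6.31), a subunit of the peripheral stalk. In complex III they were Uqcrh (5.72), the hinge protein, Uqcr11 (4.41) and Uqcr10 (4.03), both small accessory subunits. In complex I they were Ndufa4 (5.99), Ndufa2 (4.26) and Ndufa3 (4.22), where Ndufa4 is by now known as a subunit of complex IV and is counted with complex I by its symbol. The complex II genes lay close together, with Sdhc, a membrane anchor, at 1.64, Sdha, the flavoprotein, at 1.57, Sdhb, the iron-sulfur subunit, at 1.44 and Sdhd, the other anchor, at 1.23.

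In complexes I and III, small or accessory subunits had higher median levels than core subunits in this table. In TEpos the median of the 28 accessory genes of complex I was 3.04 ± 0.515 transcripts per 10000, and that of its 6 measured nuclear core genes 1.97 ± 0.314 (SD, n = 4 libraries). In complex III the 5 small subunits had a median of 5.18 ± 0.974 and the core proteins with the Rieske protein 2.47 ± 0.197. That order was also found in TEneg (2.15 ± 0.661 against 1.40 ± 0.397 in complex I) and BEneg (1.36 ± 0.273 against 0.577 ± 0.311). In complex III the medians were 3.95 ± 1.02 against 1.37 ± 0.774 in TEneg and 2.82 ± 0.392 against 0.939 ± 0.195 in BEneg. Complex V had no such steady order. Its stalk and membrane genes had 6.02 ± 0.998 in TEpos and its F1 head genes 5.44 ± 0.775. In BEneg these were 3.33 ± 0.582 and 4.24 ± 2.17. These classes were drawn up after the levels had been seen and are a description. Across the 77 genes the levels of TEpos ranked like those of TEneg (Spearman's rho 0.946) and of BEneg (0.919). Genes are not independent replicates, and these sums share libraries.

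The isoforms of a subunit were often unequal. Cox7a2 had 6.03 ± 0.954 transcripts per 10000 in TEpos and its heart and muscle form Cox7a1 0.313 ± 0.291 (SD, n = 4). Cox8a stood at 9.61 ± 2.59 and its muscle form Cox8b at 0.286 ± 0.0864. Cox8b was seen in each TEpos library, with 5 transcripts in all. It was at 0 in TEneg, BEneg and BEpos, which allows up to 0.164, 0.411 and 0.399 per 10000. With so few transcripts in TEpos, no difference from it was read from these values, and none was tested. Ndufa4l2, a hypoxia-induced paralogue of Ndufa4, had 1 transcript in TEpos and 1 in TEneg against 159 and 99 of Ndufa4. Cox4i1, Cox6a1 and Cox6b1 had 7.97 ± 1.17, 8.29 ± 0.763 and 6.99 ± 0.897 in TEpos, and their partners Cox4i2, Cox6a2 and Cox6b2 have no row here, so these pairs could not be compared. Of the 3 genes that encode the same c-ring protein, Atp5g3 (8.90 ± 3.19) and Atp5g2 (7.98 ± 1.91) exceeded Atp5g1 (1.57 ± 1.11) in every TEpos library.

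The first comparison was of Ecad-negative with Ecad-positive tumour cells. A total of 36 of the 77 genes had enough transcripts for the test (10 of complex I, 0 of complex II, 5 of complex III, 9 of complex IV and 12 of complex V). The other 41 held between 1 and 156 transcripts over the 12 sums. By edgeR's quasi-likelihood test with Benjamini-Hochberg adjustment over 490 genes, 0 of 36 passed at 0.05, and 2 had an unadjusted p under 0.05, while 6.33% of all tested genes passed. The median log2 fold change of the 36 was -0.26, against -0.01 for all genes tested, with 29 of 36 below 0 against 250 of 490. Over genes with at least 10 transcripts, tested or not, 54 of 71 OXPHOS genes (76.1%) and 44.7% of all 6167 genes had a lower mean level in TEneg.

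Cox7c came nearest to a call. Its level was 12.2, 17.4, 10 and 10.3 transcripts per 10000 in TEpos libraries 1 to 4, and 6.21, 9.02, 9.43 and 5.83 in TEneg. The groups did not overlap, and the log2 fold change was -0.63 (SE 0.24, edgeR adjusted p = 0.12). It passed in 3 of 12 alternatives (adjusted p from 0.0140 to 0.404), among them the sums without a single TEneg well of library 2 that held 55.7% of its sum (-0.79, adjusted p = 0.0342). Ndufa4 also separated the groups, and so did Ndufb9, an accessory subunit of complex I. How many of all tested genes separated their groups in this way was not counted, here or in the comparisons below. Such a gap is therefore a description of the gene's values only. Ndufa4 had 7.28, 9.62, 7.70 and 8.43 in TEpos and 6.74, 5.29, 5.51 and 3.50 in TEneg, and was not called (edgeR adjusted p = 0.339). Ndufb9 had 4.55, 4.92, 4.33 and 6.23 in TEpos and 2.15, 3.62, 2.20 and 2.92 in TEneg, and was not called either (edgeR adjusted p = 0.366), except in 1 of 11 alternatives, limma on means of wells (adjusted p = 0.0274).

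The second comparison was of Ecad-negative cells from blood with those from the tumour. Atp5o and Atp5b, both of complex V, were lower in BEneg, and Atp5l, also of complex V, was higher. These were the 3 of 36 genes called (8.33%), in a comparison where 41% of all tested genes were called. None of the 10 tested genes of complex I, 5 of complex III and 9 of complex IV passed in this fit. The median log2 fold change of the 36 was -0.17, against -0.05 for all genes tested.

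Directions for BEneg depended on the scaling. TMM scaling, used for these calls, assumes that most genes do not change, and its factors were 0.760 to 0.997 in BEneg and 1.07 to 1.14 in the tumour sums. When sums were scaled to their totals, without TMM, the all-gene median moved from -0.05 to -0.49, and 58.4% of genes were called (20.2% higher and 38.2% lower, against 23.9% and 17.1% with TMM). On that scale 12 OXPHOS genes were lower and 0 higher, with a median of -0.61.

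Atp5o encodes the OSCP subunit, which joins the F1 head to the peripheral stalk. It had 4.72, 6.47, 5.02 and 4.39 transcripts per 10000 in TEpos libraries 1 to 4, 5.66, 4.22, 7.73 and 4.67 in TEneg, and 0.816, 1.58, 2.53 and 0.897 in BEneg. Every BEneg value lay below every tumour value, although the BEneg values rest on 10 transcripts in all. The log2 fold change from TEneg to BEneg was -1.72 (SE 0.46, edgeR adjusted p = 0.00333) and the gene was called in 12 of 12 alternatives, with adjusted p up to 0.0398. Within complex V it made up 5.42 to 6.50% of transcripts in TEpos, 5.55 to 9.93% in TEneg and 1.62 to 3.74% in BEneg, a ratio that needs no scaling between cells. BEneg overlapped neither tumour population in it, while TEpos and TEneg overlapped. Atp5o was picked by its call from the same counts, so this ratio is no further support for it.

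Atp5l, the g subunit of the membrane part, went the other way. Its level was 5.12, 5.15, 6.06 and 2.33 transcripts per 10000 in TEneg and 8.18, 6.32, 9.30 and 4.49 in BEneg, higher in 4 of 4 libraries with overlapping ranges. The log2 fold change was 0.76 (SE 0.29, edgeR adjusted p = 0.0405), and the call was kept in 1 of 12 alternatives. With total scaling it was 0.33 (adjusted p = 0.347). In TEpos the level of Atp5l was 6.75, 7.88, 7.34 and 3.29, overlapping BEneg. Against TEpos the gene was not called (log2 fold change 0.43, edgeR adjusted p = 0.211, or 0.04 and 0.980 with total scaling). As a share of complex V transcripts Atp5l took 4.14 to 9.32% in TEpos, 3.92 to 7.78% in TEneg and 10 to 16.3% in BEneg. Here too BEneg alone stood apart, and TEpos and TEneg overlapped. This share also rises where the rest of complex V falls. Complex V made up 0.862% ± 0.0968 of transcripts in TEpos and 0.524% ± 0.105 in BEneg (SD, n = 4 each). Atp5l too was picked by its call from the same counts, so its share is no further support.

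Atp5b was less even between libraries. It stood at 10.8, 8.68, 8.30 and 7.0 transcripts per 10000 in TEneg and 1.63, 5.14, 8.51 and 1.79 in BEneg, so that library 3 of BEneg lay within the TEneg range. The log2 fold change was -0.96 (SE 0.35, edgeR adjusted p = 0.0292), and the call was kept in 6 of 12 alternatives. Without library 1 it was -0.53 (adjusted p = 0.323), and the adjusted p was 0.0646 without library 2 and 0.112 without library 4.

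**Figure D3:**
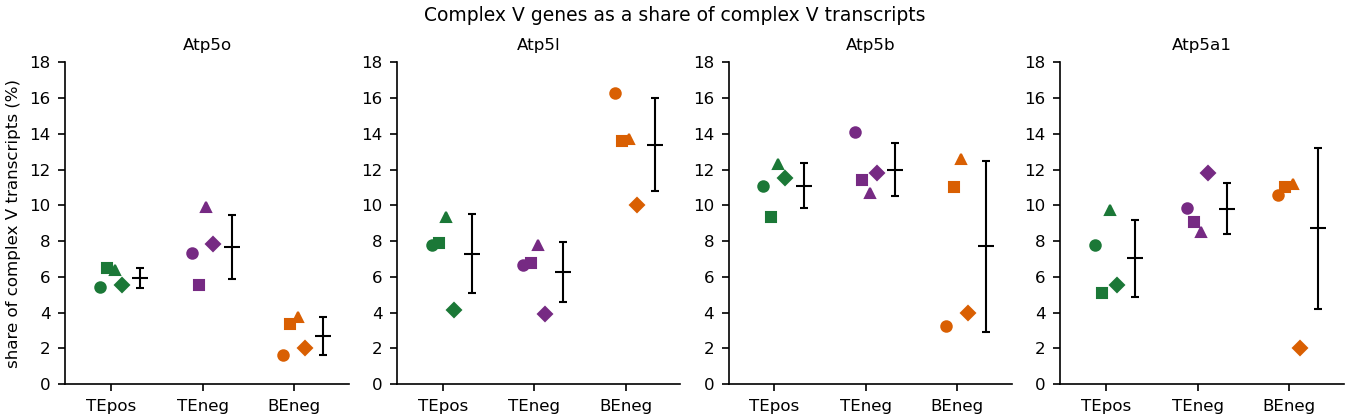
Transcripts of Atp5o, Atp5l, Atp5b and Atp5a1 as a share of all complex V transcripts (%). Points are libraries 1 to 4, and black bars are the mean ± SD of 4 libraries. BEneg lies below both tumour populations for Atp5o (1.62 to 3.74%) and above them for Atp5l (10 to 16.3%), and overlaps them for Atp5b and Atp5a1. The levels of Atp5l per 10000 transcripts overlapped between BEneg and both tumour populations.

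The promoters of these 3 complex V genes are shown because the genes moved apart although their proteins share 1 enzyme. Each line gives the 250 bases before the RefSeq start (GRCm38.p6, 5' to 3' on the gene's strand), with matches in capitals to TGCGCA (the core of the NRF1 motif), CCGGAAG (ETS family) and GGGCGG (SP1), searched on both strands. Atp5o lies at chr16:91931631-91931880 on the minus strand, Atp5b at chr10:128083057-128083306 on the plus strand, and Atp5l at chr9:44920743-44920992 on the minus strand.
Atp5o: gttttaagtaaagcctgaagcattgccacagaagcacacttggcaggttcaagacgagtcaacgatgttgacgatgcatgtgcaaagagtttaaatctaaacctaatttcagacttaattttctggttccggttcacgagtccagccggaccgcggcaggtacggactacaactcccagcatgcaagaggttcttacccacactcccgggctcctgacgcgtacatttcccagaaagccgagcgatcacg
Atp5b: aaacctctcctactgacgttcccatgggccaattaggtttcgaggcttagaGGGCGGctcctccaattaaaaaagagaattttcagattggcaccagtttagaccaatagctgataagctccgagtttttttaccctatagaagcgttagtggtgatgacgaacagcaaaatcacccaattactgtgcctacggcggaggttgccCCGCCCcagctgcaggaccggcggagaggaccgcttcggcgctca
Atp5l: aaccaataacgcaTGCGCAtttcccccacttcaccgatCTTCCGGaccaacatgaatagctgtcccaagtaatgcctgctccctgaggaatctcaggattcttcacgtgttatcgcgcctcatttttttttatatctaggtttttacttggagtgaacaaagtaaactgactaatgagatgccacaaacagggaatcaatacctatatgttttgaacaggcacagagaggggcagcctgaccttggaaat
The Atp5o window held none of these letters, Atp5b held 2 SP1 matches, and Atp5l held 1 NRF1 core and 1 ETS match. RefSeq promoters were found for 63 of the 77 genes. TGCGCA was in 20.6% of them (13) against 6.66% of all 27025 promoters, CCGGAAG in 17.5% (11) against 7.05%, and GGGCGG in 31.7% (20) against 32.9%. The 3 motifs share no overlapping letters in these windows. A match is a string of letters and not a bound site.

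The third comparison, of Ecad-negative blood cells with Ecad-positive tumour cells, shares its samples with the other comparisons and is not independent of them. Here 7 of 36 genes were lower in BEneg and 0 higher (19.4%), while 48.2% of all tested genes were called, 27.1% higher and 21% lower. They belonged to complex I (Ndufa12 and Ndufc2), complex III (Uqcrb), complex IV (Cox7c) and complex V (Atp5o, Atp5b and Atp5j). The median log2 fold change of the 36 was -0.36, against -0.08 for all genes tested. With total scaling 17 were lower and 0 higher, the median was -0.76, and that of all genes moved to -0.48, with 60.8% called (22.4% higher and 38.4% lower). Over genes with at least 10 transcripts, 68 of 71 OXPHOS genes (95.8%) and 62.7% of all genes had a lower mean level in BEneg than in TEpos.

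Ndufa12 and Ndufc2 are accessory subunits of complex I. Ndufa12 had 4.55, 4.77, 3.99 and 2.57 transcripts per 10000 in TEpos libraries 1 to 4 and 0.816, 0.790, 2.53 and 0.897 in BEneg. The values did not overlap, though libraries 4 of TEpos and 3 of BEneg nearly met, and the log2 fold change was -1.57 (SE 0.59, edgeR adjusted p = 0.0288; 0.0588 without library 4). Without library 1 or 2 Ndufa12 was not among the genes tested. Ndufc2 had 5.23, 4.48, 5.67 and 5.49 in TEpos against 0.816, 1.97, 2.53 and 1.79 in BEneg, well apart, and its log2 fold change was -1.32 (SE 0.47, edgeR adjusted p = 0.0229). Without library 1 its value was -1.03 (adjusted p = 0.145), and without library 4 -1.22 (0.0586). The BEneg levels rest on 8 and 12 transcripts.

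Uqcrb, a small subunit of complex III that takes part in ubiquinone binding, had 6.25, 5.49, 4.33 and 4.39 transcripts per 10000 in TEpos and 2.04, 1.19, 3.37 and 0.897 in BEneg. The log2 fold change was -1.23 (SE 0.46, edgeR adjusted p = 0.0280), and adjusted p was 0.0827, 0.157 and 0.110 without libraries 1, 2 and 4. Cox7c had 4.91, 6.73, 9.35 and 2.69 in BEneg, all below its TEpos values given above. Its log2 fold change was -0.82 (SE 0.27, edgeR adjusted p = 0.0151), and leaving out library 1, 2 or 4 ended the call (adjusted p = 0.0659, 0.178 and 0.103).

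Atp5j, the F6 subunit of the peripheral stalk, had 7.60, 6.88, 6.01 and 4.76 transcripts per 10000 in TEpos and 2.04, 3.56, 3.38 and 0.897 in BEneg, with no overlap. Its log2 fold change was -1.03 (SE 0.37, edgeR adjusted p = 0.0235), and the call was lost without library 1 (adjusted p = 0.154) or 4 (0.101). Atp5b had 9.66, 9.32, 9.71 and 9.17 in TEpos, all within a narrow range, and the log2 fold change to BEneg was -0.94 (SE 0.34, edgeR adjusted p = 0.0260), or -0.62 without library 1 (adjusted p = 0.199), -0.68 without library 4 (0.166) and -1.11 without library 2 (0.0507). For Atp5o it was -1.60 (SE 0.45, edgeR adjusted p = 0.00444), called in 12 of 12 alternatives. Of the 7 genes, only Atp5o kept its call with DESeq2.

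**Figure D4:**
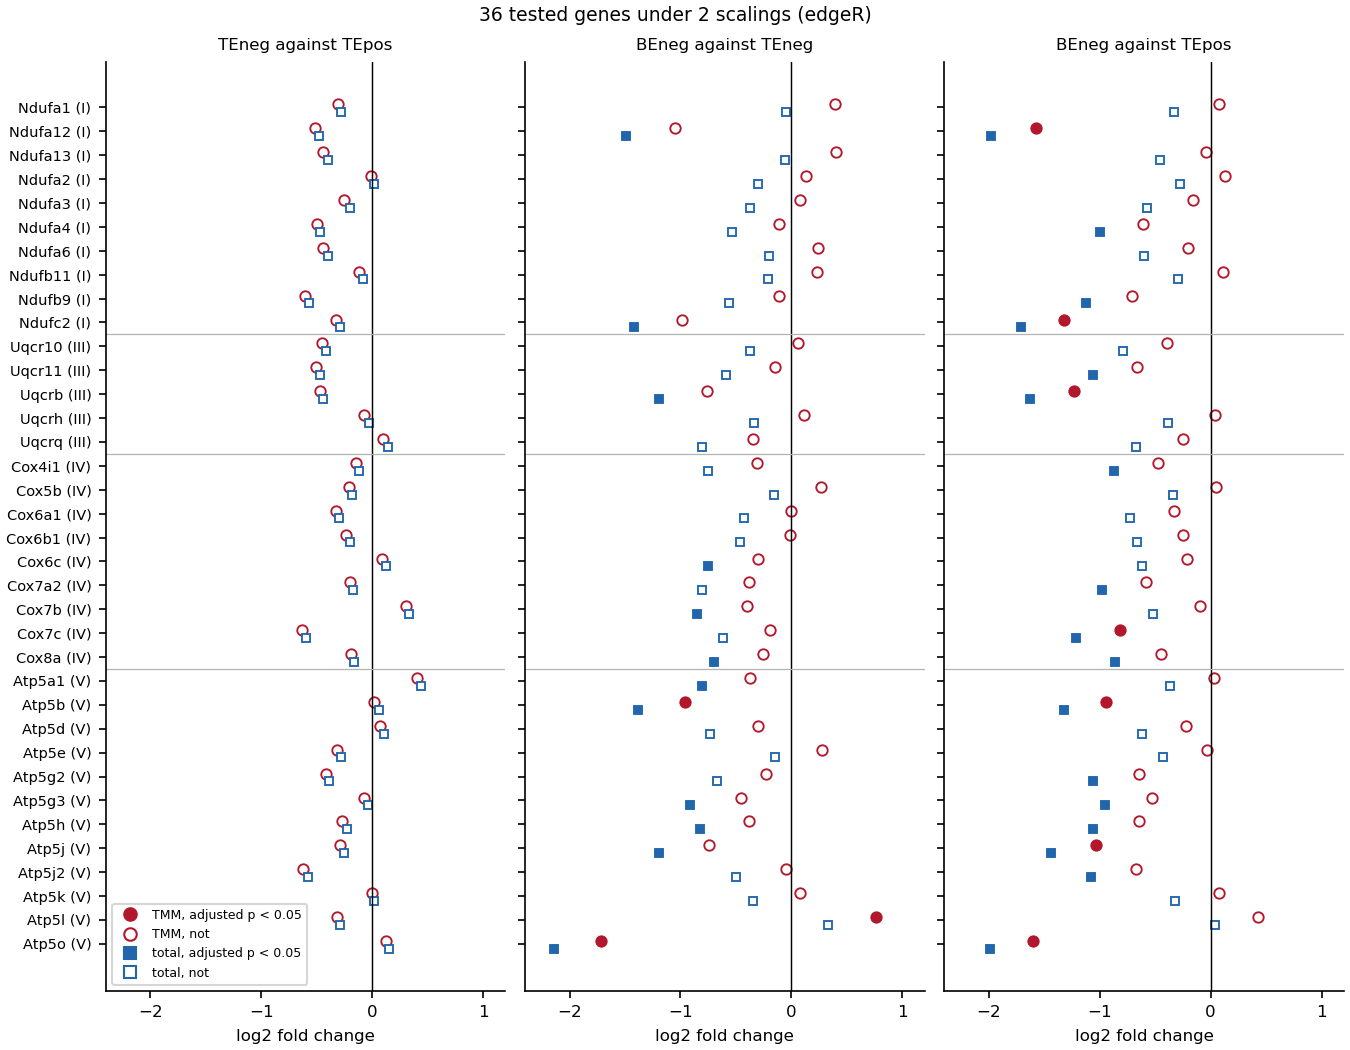
Log2 fold change of the 36 tested genes, ordered by complex, in the 3 comparisons. Circles are the TMM-scaled fit and squares the fit scaled by total transcripts, filled where the edgeR adjusted p is under 0.05. In both comparisons with BEneg the squares lie to the left of the circles, and Atp5l is the gene farthest to the right.

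In the BEpos wells of library 1 the same genes could be read without a test. Atp5o had 11 transcripts, 1.46 per 10000 (exact Poisson 95% interval 0.731 to 2.62), and Atp5l had 39, or 5.19 (3.69 to 7.10). In the same library Atp5o stood at 0.816 in BEneg and 4.72 in TEpos, and Atp5l at 8.18 and 6.75. Ndufa12 (1.60, interval 0.825 to 2.79), Ndufc2 (2.26, 1.32 to 3.62) and Uqcrb (2.26, 1.32 to 3.62) lay below the TEpos values of library 1, and so did Cox7c (5.46, 3.92 to 7.40), Atp5b (4.26, 2.91 to 6.01) and Atp5j (2.8, 1.73 to 4.27). Cox8a (8.39, 6.44 to 10.7) lay below TEpos of that library (12.1) and next to BEneg (8.19). The interval of Uqcrh (6.26, 4.60 to 8.32) held both TEpos (7.27) and BEneg (6.14).

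Experiment (i) gives Ecad-positive tumour cells of other libraries, in tables of their own. OXPHOS genes made up 2.6% of transcripts in library 1 (95 wells, 11398 of 438102 transcripts, exact 95% interval 2.55 to 2.65%) and 1.75% in library 2 (65 wells, 1224 of 69976, 1.65 to 1.85%). Both lie below the 4 TEpos libraries of experiment (ii), and they differ from each other by more than counting error. The libraries used that are labelled as Ecad-positive tumour cells thus ranged from 1.75 to 3.49%. The lowest of these values lies within the BEneg range of 1.62 to 2.18%. The cell type markers were not summed in experiment (i), so the likeness of its cells to TEpos rests on the label. Differences between the experiments cannot be told apart from differences in how the tables were made.

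Single genes differed more. Atp5c1, the gamma subunit that turns inside the F1 head, had 1 transcript in all tested sums of experiment (ii), and 131 (2.99 per 10000, exact Poisson 95% interval 2.50 to 3.55) and 17 (2.43, 1.42 to 3.89) in libraries 1 and 2 of experiment (i). Ndufa4 went the other way, with 7.28 to 9.62 in TEpos against 1.0 (0.730 to 1.35) and 0.572 (0.156 to 1.46). These 2, singled out after their values were seen, were the only ones of 69 OXPHOS genes (2.90%) that lay over 4-fold outside the TEpos range in both libraries. Of all 2264 genes at 1 per 10000 or more in either experiment, 8.79% did so. Among the c-ring genes, Atp5g1 had 6.78 (6.03 to 7.60) in library 1 of experiment (i), beside Atp5g3 at 6.0 (5.30 to 6.77) and above Atp5g2 at 4.47 (3.87 to 5.15), whereas it was the lowest of the 3 in experiment (ii). Cox7a2l, which encodes the supercomplex factor SCAF1, and Ndufs1, the largest core subunit of complex I, had rows in experiment (i) only, with 185 (4.22 per 10000) and 34 (0.776) transcripts in library 1. Ranked over the 77 genes, library 1 of experiment (i) followed library 2 (Spearman's rho 0.873) more closely than TEpos (0.797).

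**Figure D5:**
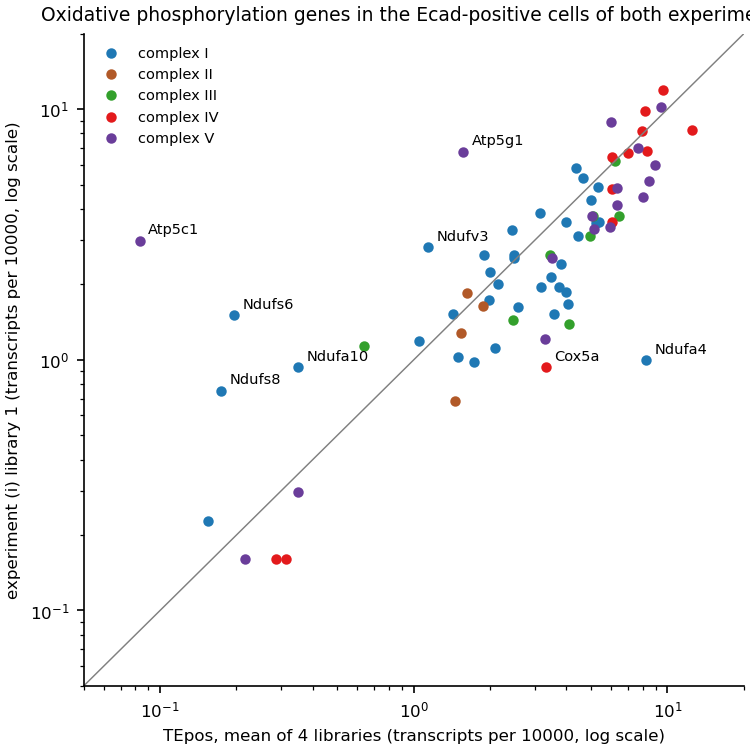
Level of each OXPHOS gene in Ecad-positive tumour cells (transcripts per 10000, log axes): mean of the 4 TEpos libraries of experiment (ii) across, library 1 of experiment (i) upward. The grey line marks equal levels, and genes at 0 on either axis are not drawn. Atp5c1 lies far above the line (2.99 on the vertical axis) and Ndufa4 far below it (1.0).

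Other mitochondrial genes were too low for most tests. Of 45 assembly factors and 12 regulators of mitochondrial biogenesis 0 were tested, of 16 citric acid cycle genes 1, of 14 electron carriers and small subunits outside the symbol rule 4, and of 13 carriers and porins 2. With TMM scaling the single call among them was Slc25a5, in BEneg against TEpos, the ADP/ATP carrier that exchanges the product of complex V across the inner membrane. It had 5.04, 9.20, 5.98 and 7.68 transcripts per 10000 in TEpos and 9.39, 7.51, 12.7 and 8.98 in BEneg, with overlap, and its log2 fold change was 0.73 (SE 0.29, edgeR adjusted p = 0.0375). With total scaling it was 0.34 (adjusted p = 0.321). On that scale 3 of the 4 tested electron carriers and small subunits outside the rule were called lower in BEneg in both comparisons. They were 2010107E04Rik, Atpif1 and Chchd2. Of all tested genes, 38.2% were called lower against TEneg and 38.4% against TEpos on that scale. The value of Slc25a5 with means of wells was -0.49 (adjusted p = 0.160), and without library 1 or 3 the adjusted p was 0.240 and 0.146.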

How the data were processed

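The authors deposited estimated counts, 1 value for each gene and well, without scaling wells to each other. BWA 0.6.2-r126 mapped the reads to mm10, per the submitters' processing notes, and how they were counted is not given. The deposited estimated counts follow 256·ln(256/(256 − k)) with k a whole number, the estimate of molecules behind k distinct barcodes of 4 bases. How reads shared with near-identical copies were assigned is likewise not given, so genes with pseudogenes are uncertain. Spike-ins were left out.

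Wells with at least 500 transcripts were summed per library and population, each well being meant to hold 1 cell, so no doublet caller was run. The 12 sums held 11134 to 109548 transcripts and were rounded to whole numbers. No sum looked like a copy of another: within a population, chi-square over degrees of freedom was 1.61 to 3.14 for the pairs of libraries. TEpos, TEneg and BEneg were fitted together with edgeR 4.0.16 (R 4.3.3; quasi-likelihood test, TMM, filterByExpr, library as a block; 490 genes; adjusted p under 0.05). Pairing comes from the deposited barcode table, where every library holds all 3 populations; residuals correlated at 0.0608 to 0.351 within a library. The SE beside an edgeR log2 fold change was back-calculated, as its absolute value over the square root of the F statistic. Alternatives used limma 3.58.1 on log2 means of wells (pseudocount 1), DESeq2 1.42.0 and the settings of the closing section. The 95% intervals (exact Poisson or Clopper-Pearson) and limits of a 0 (3 transcripts) cover counting error only. The genes and lists were chosen with earlier results of these data known. Named genes are those called, the 3 highest of each complex, fixed isoform groups and called genes of the other mitochondrial lists. Atp5s and Atp5sl are named because they match by symbol only. Other named genes (Atp5c1, Ndufs1, Sdhd, Atp5a1, Ndufb9, 2010107E04Rik, Atpif1, Chchd2) were chosen after their values were seen.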

Additional observations from a re-analysis of the deposited data

Results flagged for a closer look

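Each group of 4 libraries was searched for a library far from the others by Dixon's rule, which chance flags in about 1 in 20 groups; 9 of 108 groups were marked. In TEpos, library 2 stood apart in the share of complex I (1.18%), in Ndufa2 (7.47 transcripts per 10000) and in Ndufa4l2 (0.139, a single transcript), and library 3 in Cox4i1 (9.71). In TEneg, library 4 stood apart with low shares of all OXPHOS genes (1.83%) and of complex V (0.595%) and a high Sdhc (4.08), and library 1 in Ndufa4l2 (0.269, again a single transcript). In BEneg, library 3 stood apart in Ndufa12 (2.53).

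Library 3 of experiment (i), in which 1 of 96 wells reached 500 transcripts, was used in no comparison. All its wells together held 171 OXPHOS transcripts, 1.21% of 14046.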

How the results depend on the processing

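The shares of OXPHOS transcripts moved by less than 1 SD in every alternative tried, and ranged from 2.90 to 3.15% in TEpos, 2.36 to 2.62% in TEneg and 1.72 to 1.90% in BEneg when each library was left out. With wells of at least 1000 transcripts they were 3.04% ± 0.345, 2.47% ± 0.474 and 2.03% ± 0.389 (SD, n = 4). The BEneg share was thus highest, and nearer that of TEneg, in the deeper wells. Counts of called OXPHOS genes were less stable. They are out of 36 tested, except 77 without a filter, 31 at 1000 transcripts per well and 35 to 40 without each library. The counts over all genes follow below and moved with the settings too. For TEneg against TEpos (0 called) the count was 1 without a filter, 2 with limma on means of wells (Cox7c and Ndufb9) and 1 without the large TEneg well. For BEneg against TEneg (3) it was 12 with total scaling, 1 with DESeq2, 1 at 1000 transcripts per well, 11 with means of wells, and 1 to 3 when each library was left out. For BEneg against TEpos (7) it was 17 with total scaling, 1 with DESeq2, 15 without a filter, 2 at 1000 transcripts per well, 29 with means of wells and 1 to 8 without each library, 1 without library 1 and 3 without library 2 or 4. In the fit with no replicate block, which ignores the pairing by library, 0, 2 and 7 OXPHOS genes were called, and 20 genes in all for TEneg against TEpos; Atp5l lost its call (adjusted p = 0.0976), as did Slc25a5 (0.0591).

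Over all genes, TEneg against TEpos (31 called) gave 99 without a filter, 17 at 1000 transcripts per well, 55 without the large well and 19 to 42 without each library. BEneg against TEneg (201) gave 461 without a filter, 111 at 1000 transcripts, 315 with means of wells and 168 to 223 without each library. BEneg against TEpos (236) gave 581, 125, 374 and 193 to 258 under those settings. These counts are out of 490 tested, except 11431 without a filter and 375 at 1000 transcripts per well. Without the large well 485 were tested, and without each library 480 to 586. With means of wells, the 29 of 36 OXPHOS genes called in BEneg against TEpos thus stand beside 374 of 490 genes. With DESeq2, 173 genes were called in BEneg against TEneg and 201 in BEneg against TEpos.

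Directions reversed for values that were not called, other than Slc25a5 in BEneg against TEpos (-0.49 with means of wells). For TEneg against TEpos, Atp5b (0.02) became -0.33 without a filter, -0.28 with means of wells and -0.09 without replicate 1 (-0.09 to 0.13 over the libraries left out), Atp5o (0.12) became -0.22 without a filter and -0.03 without replicate 3 (-0.03 to 0.44), and Slc25a5 became -0.04 with means of wells. For BEneg against TEneg, Cox7c (-0.19) became 0.05 without the large well, and Slc25a5 (0.24) became -0.19 with total scaling and -0.45 with means of wells. For BEneg against TEpos, Atp5l (0.43) became -0.06 without a filter and -0.10 with means of wells. Fewer wells were used at 1000 transcripts and without a library. The cause of the changes was not tested in any setting. The BEneg sums are the shallowest, and 41 of 77 genes were below the filter.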
